A study of Mus musculus with 4 samples.

Results

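The 33 genes described here encode the core of macroautophagy, with the kinase gene Ulk2 as the member with the largest difference between wild-type and miR-223 knockout granulocytes. They were taken by name from an Agilent mouse array: 31 of the 33 were found by the gene name in the array files, and Tfeb was found through its RefSeq accession, since the array carries it under the older name Tcfeb. No probe was matched to Atg9a, which is not described further. The 32 genes stand among 28500 genes on the array, of which 16781 were tested, and all 32 were tested, each through the probe with the highest mean signal over the 4 arrays.

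Bone marrow cells of male C57BL/6 mice, wild type or miR-223 KO (lacking the myeloid microRNA miR-223), were grown in GM-CSF, a growth factor of granulocytes and macrophages, at 40 ng/ml over 4 days, and the immature granulocytes that expanded were sorted. The labels give no age and do not say whether replicates came from separate mice. Total RNA was labelled with Cy3 and each of 4 samples, 2 per genotype, was hybridised to an array of its own on 1 slide. The comparison asks which transcripts differ when miR-223 is absent. No probe was matched to miR-223 itself, so the deletion was not checked on these arrays. Both mature strands of the deleted microRNA are given as RefSeq holds them (build GRCm38.p6), with the seed (bases 2 to 8) in capitals, since pairing of the seed to a messenger RNA is how a microRNA finds its targets.
miR-223-3p: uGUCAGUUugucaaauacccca
miR-223-5p: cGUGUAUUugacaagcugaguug

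Autophagy delivers cytoplasm and organelles to the lysosome. The Ulk1 and Ulk2 kinases, held on the scaffold Rb1cc1, start the process, a lipid kinase complex around Pik3c3 and Becn1 marks the forming membrane with PI3P, and Atg2 proteins bring lipid to it. A ubiquitin-like conjugation system then attaches ATG8 proteins (the LC3 and GABARAP proteins) to the membrane, and receptors such as Sqstm1 tie cargo to them. In granulocyte precursors, autophagy is known for its part in differentiation and in supplying energy.

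Levels below are log2 intensities relative to the 75th percentile of each array, so that 0 is that percentile. Differences are knockout minus wild type, with limma's standard error (SE) and n = 2 arrays per group. On the 4 arrays, 57.6% to 63.5% of 41174 probes were well above background, the criterion of the scanner software, and no probe was saturated. With so few arrays the precision is limited, and the median SE over all genes was 0.157. P-values measure only the spread between these samples, which may be technical. Granulocyte marker genes were well above background on every array (10 tested of 12 listed), with a summed linear level of 3780 and 3990 in wild type and 4130 and 4560 in knockout, in multiples of the 75th percentile. Of these 10 granulocyte genes, 8 had positive and 2 negative differences (median 0.14). For the macrophage, mast cell, dendritic cell and erythroid lists most differences were negative. For the B cell and the T and NK cell lists most were not. No marker gene of any list passed the adjusted p threshold used below (limma). Of 14 macrophage and monocyte markers, 13 had negative differences (median -1.09), and their summed level was 38.3 and 47.7 in wild type and 34.7 and 37.2 in knockout. Of 8 tested mast cell and basophil markers of 10 listed, 7 had negative differences (median -1.30), with summed levels of 37.4 and 43.8 in wild type and 28 and 19.6 in knockout. Of 10 dendritic cell and MHC class II markers 8 had negative differences (median -0.29). Of 5 tested erythroid and megakaryocyte markers 4 did (median -0.36). The 4 tested B cell markers had 2 positive and 2 negative differences (median 0.12). Of 4 tested T and NK cell markers 3 were positive (median 0.04). Wild-type arrays also differed from each other. The summed level of 5 eosinophil markers was 10.1 on wild-type array 1 and 54.7 on wild-type array 2, against 20.3 and 29.8 in knockout. Knockout arrays differed too. The summed level of the dendritic cell and MHC class II markers was 185 on knockout array 1 and 125 on knockout array 2, against 176 and 190 in wild type. The part of these markers in the values below was not tested, and in sorted bulk samples a change in the mix of cells and a change of RNA per cell cannot be told apart.

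Among the 32 autophagy genes 0 were called higher and 0 lower in knockout at an adjusted p of 0.05 (limma, Benjamini-Hochberg over all 16781 genes), and over the whole array 0% of genes were called. At an unadjusted p under 0.05, 1348 of all genes (8.03%) were higher and 927 (5.52%) lower in knockout, against 1 member higher (Ulk2) and 0 lower. The difference was above 0 for 20 members and below for 12, where 54.8% of all tested genes were above 0. For 11 members the lower knockout array exceeded the higher wild-type array, as it did for 28.0% of all tested genes, and for 2 members the order was the opposite, as for 20.1%. Together 40.6% of the members lay apart, against 48.0% of all genes. The median difference of the members was 0.05 and that of all genes 0.03. Without Ulk2 the members ran from -0.28 (Atg2b) to 0.37 (Map1lc3a), a range that 28.0% of all tested genes exceeded. The differences of the members other than Ulk2 thus lay within the central part of the distribution of all genes.

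**Figure D1:**
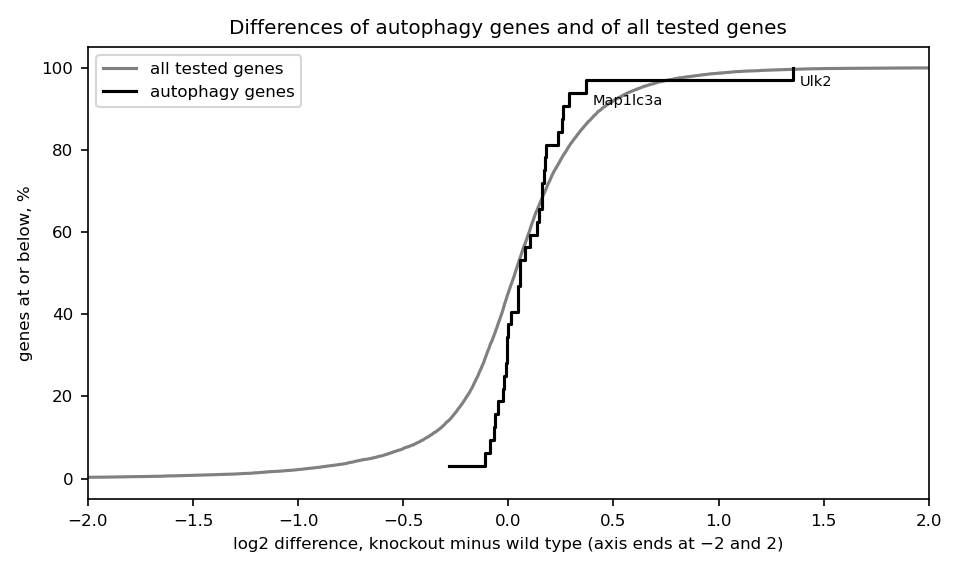
Cumulative share of genes (y axis, percent) at or below each log2 difference, knockout minus wild type (x axis, drawn from -2 to 2), for the 32 autophagy genes in black and all 16781 tested genes in grey. The black steps rise from -0.28 to 0.37, and end with Ulk2 at 1.36.

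**Figure D2:**
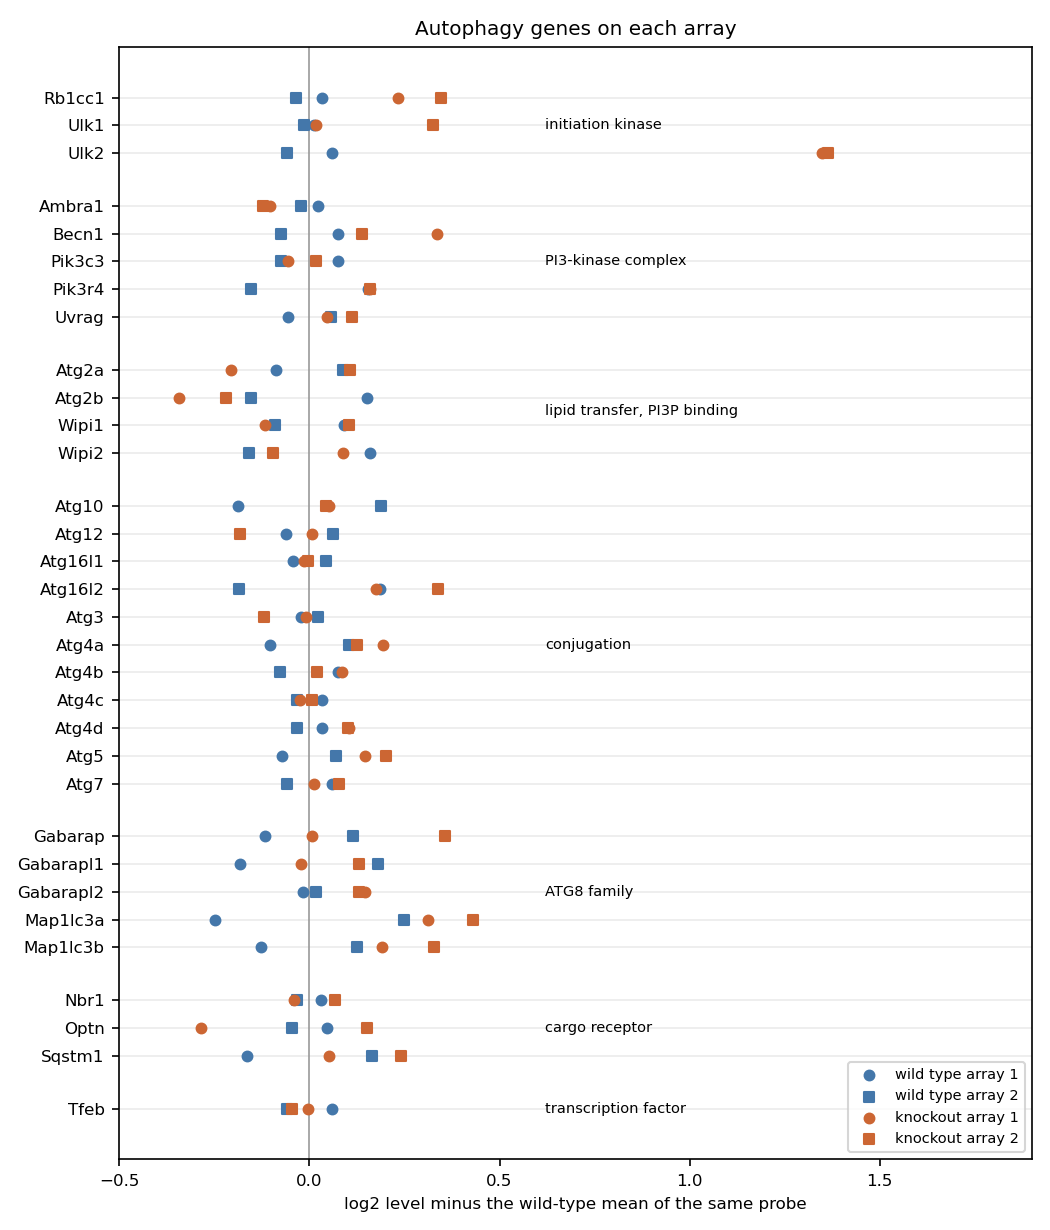
Level of each autophagy gene on each array, as log2 level minus the wild-type mean of the same probe (x axis), by role (y axis). Points are single arrays, blue for wild type and orange for knockout, with circles for array 1 and squares for array 2. Both Ulk2 knockout points lie near 1.36, to the right of the points of all other genes.

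Ulk2, one of the kinases that start autophagy, had the largest difference of the members. Its level was -2.51 and -2.63 in wild type against -1.22 and -1.20 in knockout. The knockout arrays were thus both higher and close to each other, and the groups did not overlap. The difference was 1.36 ± 0.12 (SE, n = 2 per group; 2.56-fold), with an unadjusted p of 0.000234 and an adjusted p of 0.22 (limma). Of all tested genes, 240 (1.43%) had an absolute difference as large. Ulk2 was placed in the list with this value known, so the value is a description.

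The Ulk2 difference was that of 1 probe. The array holds 4 Ulk2 probes on chromosome 11 (build mm9, minus strand), and the probe above, which reads chr11:61589841-61589900, is the most 3′ of them. Another probe of the same RefSeq transcript starts 1.46 kb upstream. Its 60 bases span 1894 bases of genome (chr11:61591298-61593191), so that it crosses an exon junction, and its levels were -2.50 and -2.32 in wild type and -2.25 and -2.38 in knockout. These groups overlapped, with a difference of 0.09 ± 0.14 (adjusted p = 0.806, limma over 25057 probes, of which 3 (0.0120%) passed and none was a member's). Its sign turned with normexp background correction (-0.04). A probe further upstream (chr11:61616935-61616994), assigned to a cDNA clone and not to the RefSeq transcript, was at -2.53 and -2.94 in wild type and -2.55 and -1.97 in knockout, a difference of 0.48 ± 0.27 (adjusted p = 0.51, limma). Only knockout array 2 lay above wild type there. The remaining probe (chr11:61602672-61602731), also assigned to a cDNA clone, was above background on 0 of 4 arrays and was not tested.

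The ratio of the most 3′ probe to the junction probe within each array was also compared. On the log2 scale it was -0.01 and -0.31 in wild type and 1.03 and 1.17 in knockout, a difference of 1.26. An exact permutation test over the arrays gave a two-sided p of 0.333, the smallest that 2 arrays against 2 allow, so the test decides nothing. The value of the most 3′ probe was known when Ulk2 was listed, so this ratio too is a description. The knockout signal also decided which probe stood for the gene. With the probe of each gene chosen on the wild-type arrays alone, an alternative added after the data were seen, Ulk2 was represented by the junction probe (0.09) and was the only one of the 32 members to change its probe (79 of 16764 genes in all changed theirs). The mean over all Ulk2 probes gave 0.41 (adjusted p = 0.376, limma). Among its 60 bases, the most 3′ probe has a stop codon in each of the 3 forward reading frames, whereas 2 of 3 are open in the junction probe. Probes of other members, such as those of Ambra1, also have stop codons in all 3 frames. Whether the Ulk2 probes lie in coding or untranslated sequence was not tested.

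**Figure D3:**
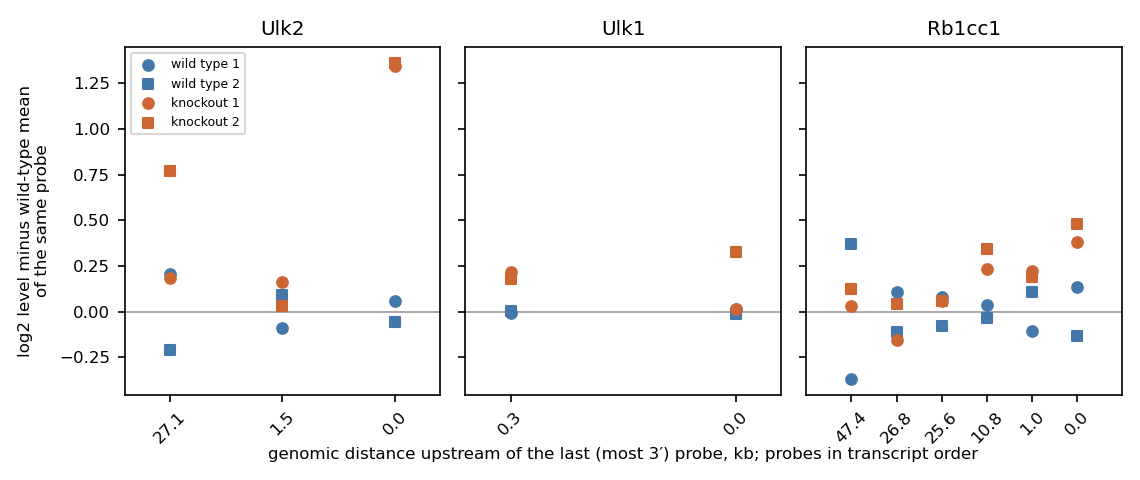
Tested probes of Ulk2, Ulk1 and Rb1cc1 in transcript order, labelled by their distance in kb upstream of the most 3′ probe (x axis), with the log2 level on each array minus the wild-type mean of the probe (y axis; blue wild type, orange knockout). For Ulk2 the knockout arrays separate at the most 3′ probe and not at the probe 1.46 kb upstream, and for Rb1cc1 they separate at the 3 most 3′ of 6 probes.

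For the other initiation genes the differences were smaller. Ulk1, the kinase most often tied to starvation-induced autophagy, was at 3.04 and 3.01 in wild type and 3.04 and 3.35 in knockout (chr5:111213515-111213574). Knockout array 1 was level with wild type, and the difference of 0.17 ± 0.16 (adjusted p = 0.669, limma) was 0.02 without knockout replicate 2. A second Ulk1 probe, 0.27 kb upstream, was at -0.07 and -0.06 in wild type and 0.15 and 0.12 in knockout, a difference of 0.20 ± 0.12 (adjusted p = 0.55, limma). For this probe the groups did not overlap.

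Rb1cc1, also called FIP200, the scaffold that holds the Ulk kinases, was read by 6 probes on chromosome 1. The probe chosen (chr1:6253314-6254650) was at 0.07 and 0.00 in wild type and 0.27 and 0.38 in knockout, groups that did not overlap, with a difference of 0.29 ± 0.13 (adjusted p = 0.417, limma). From the most 5′ to the most 3′ probe the differences were 0.08, -0.06, 0.06, 0.29, 0.21 and 0.43, and the groups were apart at the last 3 probes only. The most 3′ probe (chr1:6265434-6265493) was at -0.30 and -0.56 in wild type and -0.05 and 0.05 in knockout, with an adjusted p of 0.371 (limma over probes). The ratio of the most 3′ to the most 5′ probe differed by 0.35 between genotypes, the 5′ probe being at -2.85 and -2.11 in wild type. The exact two-sided permutation p was 1. This test too cannot give less than 0.333, so no conclusion is drawn from it. Of 22 members with 2 or more tested probes placed on the chromosome of the gene, the most 3′ probe had the highest difference in 5.

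The sequences below are some of the probes of Ulk2 and Rb1cc1 that lie upstream of the most 3′ probe (array files, mm9). They mark the stretch that gave each value listed, in transcript order and in lower case throughout. Other upstream probes are not shown. Nor are the most 3′ probes, which gave 1.36 for Ulk2 and 0.43 for Rb1cc1.
Ulk2, junction probe, difference 0.09: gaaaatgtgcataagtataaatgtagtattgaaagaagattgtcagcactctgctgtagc
Rb1cc1, chr1:6238648-6238707, difference -0.06: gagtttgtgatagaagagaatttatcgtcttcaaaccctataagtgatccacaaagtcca
Rb1cc1, chr1:6239839-6239898, difference 0.06: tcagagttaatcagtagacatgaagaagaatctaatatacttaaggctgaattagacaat
Rb1cc1, chr1:6253314-6254650, difference 0.29: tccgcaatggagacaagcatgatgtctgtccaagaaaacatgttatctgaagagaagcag
The letters aactgac, to which bases 2 to 8 of miR-223-3p can pair, occur in 0 of the 70 probes of the members and in 0.372% of all probes, and aatacac, the same for miR-223-5p, in 0 and 0.35%. Probes cover 60 bases of a transcript, so these counts say nothing of the rest of it.

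Genes of the lipid kinase complex were close to wild type. Becn1, the subunit that recruits regulators to the complex, was at 1.86 and 1.71 in wild type and 2.12 and 1.93 in knockout, with a difference of 0.24 ± 0.14 (adjusted p = 0.528, limma) and groups that did not overlap. It was 0.14 without knockout replicate 1, and a dim second Becn1 probe gave 0.31 with overlapping groups. Uvrag, which joins the complex at later steps, was at 3.06 and 3.18 in wild type and 3.17 and 3.23 in knockout, a difference of 0.08 (0.02 without wild type replicate 1). Pik3r4, the regulatory subunit, had a difference of 0.16, which was 0.01 without wild type replicate 2. A dim second Pik3r4 probe, assigned to a cDNA clone, gave -0.26 with both knockout arrays below wild type. The mean of all Pik3r4 probes gave -0.05. The catalytic subunit Pik3c3 had a difference of -0.02. Ambra1, a Becn1 partner, had a difference of -0.11 with both knockout arrays below wild type, and its sign turned under 1 alternative, the mean of all probes (0.32), since a dim second probe assigned to a cDNA clone gave 0.76 ± 0.19 (adjusted p = 0.293, limma over probes).

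The 4 measured genes for lipid transfer and PI3P binding had differences below 0, none of which passed. Atg2b, a lipid transfer protein, was at -0.53 and -0.83 in wild type and -1.02 and -0.90 in knockout. Both knockout arrays lay below wild type (difference -0.28 ± 0.16, adjusted p = 0.509, limma), and the difference was -0.13 without wild type replicate 1. Dimmer Atg2b probes gave 0.11 (assigned to a cDNA clone) and -0.15, each with overlapping groups. Its paralog Atg2a had a difference of -0.05. Wipi1, a reader of PI3P, was at 1.501 and 1.32 in wild type and 1.29 and 1.52 in knockout (difference -0.01), and Wipi2, which brings the conjugation machinery to PI3P, had a difference of -0.003. A dimmer Wipi1 probe gave 0.14 with both knockout arrays above wild type. Other Wipi2 probes gave -0.18 with both knockout arrays below wild type, 0.17 with both above, and 0.13 with overlapping groups. The signs of Wipi1 and Wipi2 turned with spike-in scaling, with the authors' deposited values and with normexp background correction. That of Atg2a turned with normexp and when wild type replicate 2 or knockout replicate 1 was left out, so no direction is given for this group.

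The conjugation system held 11 genes, of which 7 had differences above 0 and 4 below, with a median of 0.05. Atg16l2, a homologue of the scaffold Atg16l1, was at 1.47 and 1.097 in wild type and 1.46 and 1.62 in knockout, a difference of 0.26 ± 0.18 (adjusted p = 0.576, limma). The groups overlapped, and the difference was 0.07 without wild type replicate 2. Atg12, the ubiquitin-like protein joined to Atg5, was at 3.204 and 3.33 in wild type and 3.27 and 3.08 in knockout, a difference of -0.09. Dimmer Atg12 probes gave 0.06, with both knockout arrays above wild type, and 0.02, with overlapping groups. Both knockout arrays lay above wild type for Atg5 (0.17 ± 0.13), for Atg4a (0.16) and for Atg4d (0.10), the last 2 being proteases that process ATG8 proteins. Without wild type replicate 1 the difference was 0.10 for Atg5 and 0.05 for Atg4a, and with normexp it was 0.07 for Atg4a and 0.06 for Atg4d. The differences of Atg7, the activating enzyme, of Atg3 and Atg10, the conjugating enzymes, of the proteases Atg4b and Atg4c, and of Atg16l1 ran from -0.06 (Atg3) to 0.05 (Atg4b). Dim further probes of Atg4c (above background on 3 of 4 arrays) and of Atg4d (assigned to a cDNA clone) gave 0.42 and 0.36. The remaining probe of each gave -0.01 and 0.05. The adjusted p of these 11 genes ran from 0.576 (Atg16l2) to 0.981 (Atg4c) (limma).

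The 5 ATG8 genes, whose products are attached to the membrane, each had a difference above 0 (median 0.18), and none passed. Map1lc3a was at 0.25 and 0.74 in wild type and 0.81 and 0.92 in knockout, a difference of 0.37 ± 0.21 (adjusted p = 0.498, limma). Map1lc3b, the LC3 form most used to count autophagosomes, was at 4.36 and 4.61 in wild type and 4.68 and 4.81 in knockout, a difference of 0.26 ± 0.15 (adjusted p = 0.515, limma). Both knockout arrays lay above wild type for each of the pair, and a second Map1lc3b probe gave 0.36 ± 0.16. Gabarap was at 4.69 and 4.93 in wild type and 4.82 and 5.17 in knockout (difference 0.18). Gabarapl1 was at 4.82 and 5.19 in wild type and 4.98 and 5.14 in knockout (difference 0.06). These groups overlapped, while those of Gabarapl2 (difference 0.14) did not. The only Gabarapl2 probe was assigned to a cDNA clone and not to a RefSeq transcript. It was dim, at -3.66 and -3.62 in wild type and -3.49 and -3.51 in knockout. All 5 genes were lowest on wild-type array 1, as were 28.5% of all tested genes. The summed eosinophil and granulocyte markers were lowest on that array too, as were the summed lysosome fusion genes and further cargo receptors described below. The summed macrophage and monocyte markers and the mast cell and basophil markers were not. The 75th percentile subtracted was highest on that array (an intensity of 586). The part of any of these in the low values was not tested. Without that array the differences were 0.12 for Map1lc3a, 0.13 for Map1lc3b, 0.07 for Gabarap, 0.12 for Gabarapl2 and -0.13 for Gabarapl1. Gabarapl1 was also below 0 without knockout replicate 2 (-0.02), and Gabarap was then at 0.01. A dimmer second Gabarapl1 probe gave 0.23 with both knockout arrays above wild type. Gabarapl2 also changed sign with normexp background correction (-0.03).

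Cargo receptors and the transcription factor of the list did not separate. Sqstm1, the p62 receptor, was at 5.10 and 5.43 in wild type and 5.32 and 5.51 in knockout. The groups overlapped, with a difference of 0.15 ± 0.17 (adjusted p = 0.745, limma) that was -0.02 without wild type replicate 1. Nbr1, a related receptor, had a difference of 0.01 and Optn, a receptor for bacteria and mitochondria, one of -0.07. Tfeb, which drives lysosomal and autophagy genes, was at -1.31 and -1.43 in wild type and -1.38 and -1.42 in knockout, a difference of -0.03 ± 0.12 (adjusted p = 0.947, limma).

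Of 77 further genes of autophagy in 5 lists, 73 were tested and 0 passed in either direction (limma). At an unadjusted p under 0.05, 6 were higher and 0 lower in knockout, where 8.03% of all genes were higher and 5.52% lower, so the count of higher genes was near the rate of the whole array. Both knockout arrays lay above wild type for 24 and below for 9, together 45.2% against 48.0% of all genes, and the median was 0.05 (0.03 for all genes). Cargo receptors outside the core list had a median of 0.30, with groups apart upward for 8 of 14 and downward for 1, where 28.0% and 20.1% of all genes were. This median was 0.18 with the gene names of the array and 0.195 without wild type replicate 1. Bnip3, a mitophagy receptor that is also induced by hypoxia, was at 1.22 and 1.04 in wild type and 1.87 and 1.89 in knockout, a difference of 0.75 ± 0.13 (adjusted p = 0.246, limma). Ccpg1, a receptor for the endoplasmic reticulum, had a difference of 0.52 ± 0.14 and Ncoa4, the ferritin receptor, one of 0.49 ± 0.14, with adjusted p of 0.302 and 0.305 (limma). These 3 genes were named for the smallest p of their list, a choice that favours groups that do not overlap. In each, both knockout arrays exceeded both wild-type arrays.

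In the list for fusion with the lysosome the median over 15 tested genes was 0.09, and it was 0.16 without wild type replicate 2, 0.146 without knockout replicate 1, and 0.149 with normexp. The SNARE gene Snap29 was at 2.59 and 2.78 in wild type and 3.11 and 3.07 in knockout (difference 0.40 ± 0.14, adjusted p = 0.343, limma). The SNARE gene Ykt6 and the tethering gene Vps18 each had a difference of -0.31, so differences of both signs were present. Among 22 nutrient and energy control genes (median 0.03, from 0.001 with quantile normalization to 0.11 with array gene names), Sesn3, a sestrin that restrains mTORC1, was at -1.98 and -1.65 in wild type and -1.26 and -1.28 in knockout (difference 0.54 ± 0.16, adjusted p = 0.319, limma). Ddit4, another mTORC1 inhibitor, had a difference of 0.44 and Rheb, the mTORC1 activator, one of -0.21.

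Among 9 transcription factors (median -0.035, and 0.06 without wild type replicate 2), Foxo3, a factor that induces autophagy genes, was at -3.59 and -3.42 in wild type and -2.92 and -2.46 in knockout, a difference of 0.82 ± 0.20 (adjusted p = 0.277, limma). Foxo1 had a difference of -0.22 and Mitf, a relative of Tfeb, one of -0.37 with overlapping groups. Among 13 initiation and membrane partners the median was 0.01 (-0.06 without wild type replicate 1), with differences of 0.29 for Tmem41b, -0.22 for Vmp1 and -0.20 for Wdr45b. Vmp1 and Tmem41b, which move lipid between membrane leaflets at sites of autophagosome formation, thus had opposite signs, and neither passed.

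**Figure D4:**
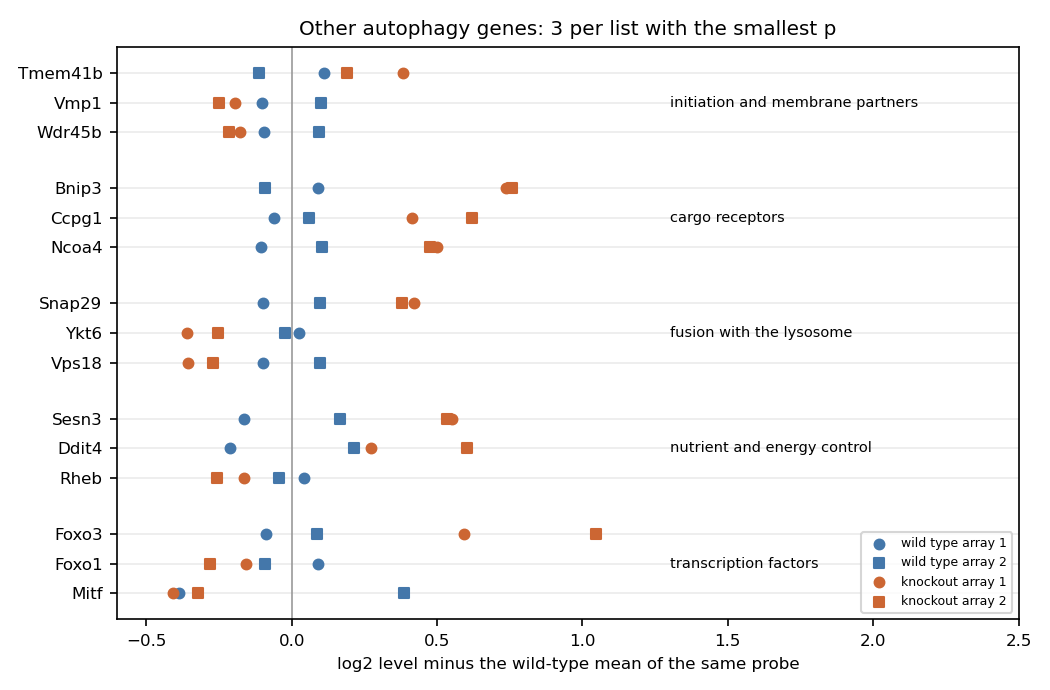
The 3 genes with the smallest p in each of 5 lists of other autophagy genes, with the log2 level on each array minus the wild-type mean of the probe (x axis; blue wild type, orange knockout; circles array 1, squares array 2). Both knockout arrays lie to the right of wild type for Bnip3, Ccpg1, Ncoa4, Snap29, Sesn3, Ddit4, Foxo3 and Tmem41b. Both lie to the left for Vmp1, Wdr45b, Ykt6, Vps18, Rheb and Foxo1, and the groups overlap for Mitf. Choosing genes by a small p favours groups that do not overlap.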

How the data were processed

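Gene expression was measured in 4 samples, 2 per genotype, with 1-colour Agilent arrays of design 014868 on 1 slide with 1 scan time, so slide and scan are shared by both groups. Spot intensity values as deposited come, per the file headers, from version 10.5.1.1 of the Feature Extraction software (pixel outliers rejected, spatial trend and background removed, surrogate values for dim spots), with no normalization between arrays. The authors' deposited log2 values equalled the log2 processed intensity plus a constant per array for 99.8% of probes within 0.01, with medians of 5.03 on each array; how they were made is not given in the sources used here, and they served as an alternative.

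Control spots and flagged spots were left out, the log2 processed intensity of the spots of a probe was averaged, and the 75th percentile of each array (intensities of 486 to 586) was subtracted. Probes were named through RefSeq (GRCm38.p6; 26888 by systematic name, 95 by another accession, 14191 kept the array's name). A gene was tested if both arrays of at least 1 group flagged its probe as well above background; coordinates are mm9, as in the array files. Genotypes were compared with limma 3.58.1 (lmFit, eBayes, two-sided) in R 4.3.3. Named genes are all members, with values per array for Ulk1 and Ulk2 probes, the 8 largest differences and the brightest gene of each role, and the 3 smallest p per further list. The members and lists were chosen with earlier results of these data known. Replicate numbers are given by the labels, which do not say that a number marks a shared mouse or day, so the main fit had no replicate block.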

Additional observations from a re-analysis of the deposited data

How the results depend on the processing

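Under all 14 alternatives 0 members passed in either direction. Of the 32 members, 13 kept their sign under every alternative run, 12 above 0 (Ulk1, Ulk2, Rb1cc1, Becn1, Uvrag, Atg4a, Atg4d, Atg5, Atg16l2, Map1lc3a, Map1lc3b and Gabarap) and 1 below (Atg2b), and for the other 19 the sign turned under at least 1. The replicate block, no filter on dim probes and the array's gene names left the difference of each member tested unchanged. Choosing probes on wild-type arrays changed that of Ulk2 only. These alternatives thus tested few or no signs. Ulk2 ran from 0.09 (probe chosen on wild-type arrays alone) to 1.41 (without wild type replicate 1), with 0.99 under normexp background correction, 0.41 as the mean of its probes, and adjusted p from 0.112 to 0.794 (limma).

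Over all genes, 5 passed with normexp and 4 with spike-in scaling, against 0 (the cause was not tested). Members below wild type on both arrays numbered 4 with normexp, 0 with spike-in scaling, 1 with the authors' deposited values and 0 with the mean of all probes, against 2. Leaving out 1 array, which makes it easier for groups to be apart, gave 4 to 7 below and 12 to 20 above. The shares of all genes apart under these settings are not given here. The counts are therefore not read as a result about the members. The median of the members was 0.10 with spike-in scaling, under which that of all genes moved from 0.03 to 0.08, and 0.13 with the mean of all probes, under which that of all genes was 0.03, and 0.031 to 0.11 when 1 array was left out. That of the other autophagy genes was 0.095 with spike-in scaling, 0.0895 with array gene names and 0.066 with the authors' deposited values, and 0.061 to 0.082 with 1 array left out. With 1 array left out, the lone array of a group is assumed to vary like the other group.

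With the replicate number as a block 0 genes were called, and the Ulk2 difference of 1.36 had an adjusted p of 0.235 (limma); same-numbered arrays deviated together with a correlation of 0.174 across 16781 genes, but 2 pairs do not show that the numbers pair the samples.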
